A study of Mus musculus with 22 samples.

Results

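The genes described here encode potassium channels of the mouse retina other than the Kir4.1 complex of Müller glia, the radial support cells of that tissue. Every protein-coding gene of the deposited count table whose symbol begins with Kcn was taken, and Kcnj10, Kcnj2 and Kcnj16 were left out. That gave 91 members among 23374 protein-coding genes, in a table of 44792 genes. By role they were 40 voltage-gated pore subunits, 12 inward rectifiers, 14 tandem-pore leak channels, 8 channels gated by calcium or sodium, and 17 accessory or regulatory subunits.

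RNA was sequenced from 10 libraries of C57BL/6 mice. Müller cells had been sorted by flow cytometry from Rlbp1-GFP mice, in which regulatory sequence of Rlbp1, the gene of a retinoid-binding protein, marks cells with a fluorescent protein. They came from untreated young mice of 2 to 3 months (2 libraries), from young mice of the same age that received NMDA in the vitreous 2 days before collection (3 libraries), and from untreated aged mice of 1.5 years (2 libraries). NMDA activates glutamate receptors and is toxic to neurons of the inner retina. Retinal progenitor cells (RPCs), the dividing cells that build the retina, came from C57BL/6 embryos at embryonic day 12.5 (3 libraries), and the labels name no sort for them. DNA methylation was measured by reduced representation bisulfite sequencing (RRBS) in 3 libraries of each of the same 4 groups. The labels call the young and aged RNA libraries and the RRBS libraries biological replicates. For the NMDA and RPC RNA libraries they say replicates only, so p-values measure the spread between libraries, which may there be technical.

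Potassium channels let potassium cross the membrane down its electrochemical gradient and so set the resting potential and end the action potential. Voltage-gated pore subunits open on depolarisation, inward rectifiers and tandem-pore channels carry current near rest, and accessory subunits change gating or trafficking. Müller glia use a high resting potassium conductance to take up the potassium that active neurons release, and Kir4.1, encoded by Kcnj10, carries most of it.

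Total counts ran from 10149390 to 36486072 per library. Both young libraries held fewer detected genes, 13913 and 14919, than the other libraries, with 20920 to 23618, at total counts of 15202738 and 10149390, beside 11067405 to 14520423 in the RPC libraries. The young replicates also correlated less with each other (Pearson's r of log2(CPM + 1) over 18931 genes 0.884) than replicates of the other groups (0.962 to 0.994). Of the members, 28 and 38 were counted in the young libraries, 72 to 74 in NMDA, 68 and 69 in aged and 74 to 80 in RPC libraries. Of the 36 members at 1 CPM (counts per 1e+06 counts) or more in every NMDA and aged library, 5 were at 0 in both young libraries, which is 13.9%, against 4.36% of all genes (596 of 13679). For this reason RNA comparisons with aged Müller cells are also given. As a check of the labels, the summed CPM of 10 Müller glia markers, all counted in each library apart from 1 in RPC replicate 3, was 64889 and 55052 in young, 19136 to 25339 in NMDA, 52519 and 53224 in aged, and 2284 to 2311 in RPC libraries. The excluded Kcnj10 stood at 1051 and 1008 CPM in young, 710.3 to 1061 in NMDA, 1086 and 1167 in aged and 0.275 to 0.542 in RPC libraries.

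The members as a whole gave 2063 and 1839 CPM in the young libraries, 936.6 to 1361 in NMDA, 1529 and 1379 in aged, and 461.2 to 467.7 in RPC libraries. All Müller libraries thus lay above the RPC libraries. In RPCs 48 members still had a group mean of at least 1 CPM, as did 48 in NMDA, 46 in aged and 37 in young cells, but in RPCs none reached 100 CPM, against 5 in young cells. Of the 62 members with a mean of at least 1 CPM in some group, the mean was highest in young cells for 14, in NMDA for 15, in aged for 13 and in RPCs for 20. The table gave no gene lengths, so levels are compared between libraries and not between genes.

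**Figure D1:**
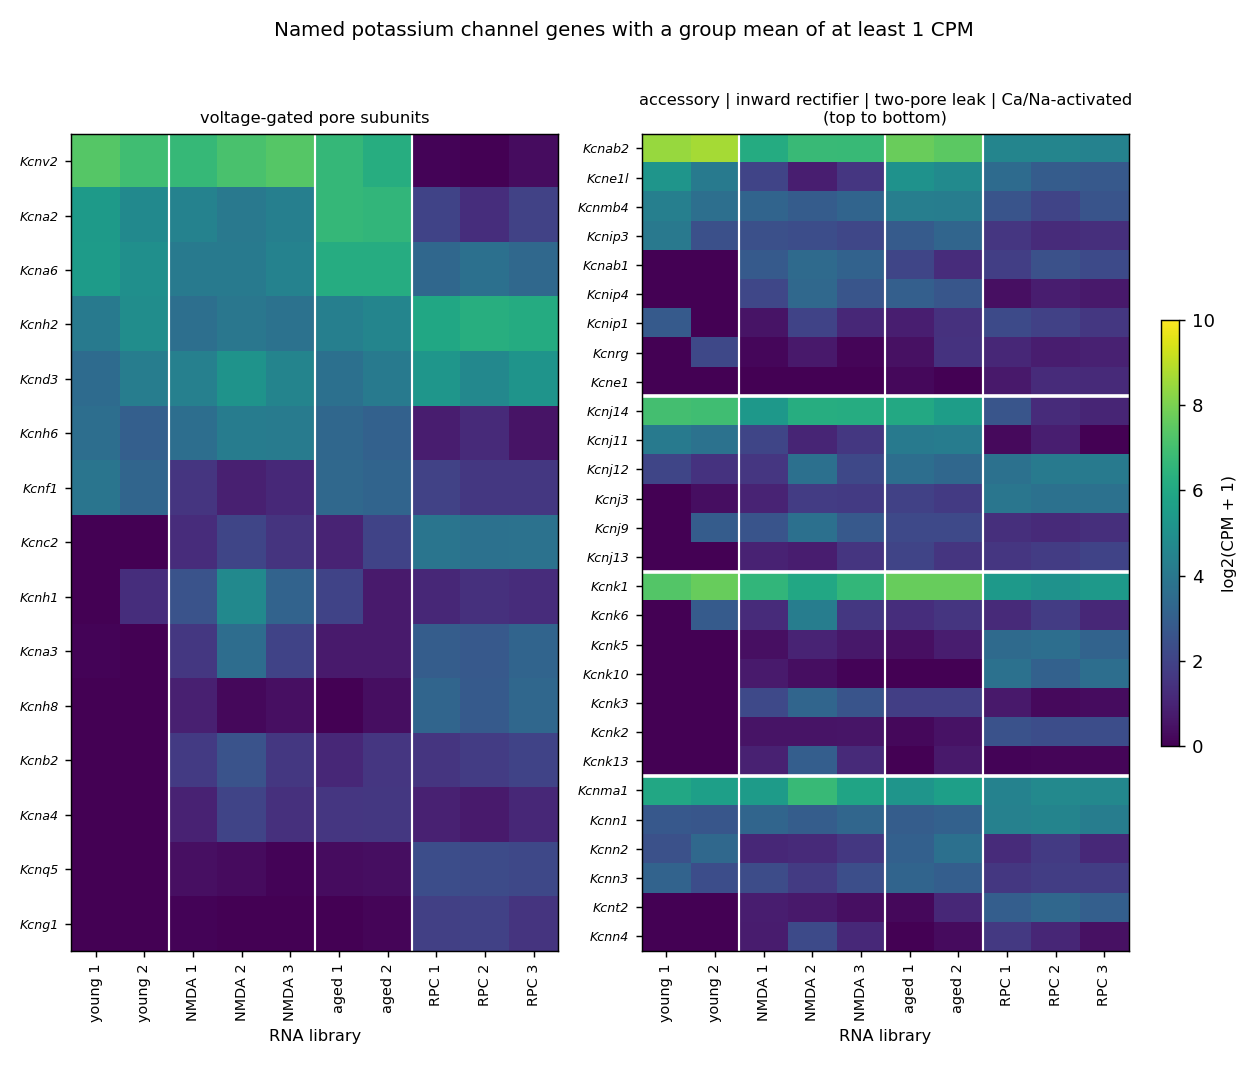
Level of the 43 channel genes described by name below that had a group mean of at least 1 CPM, as log2(CPM + 1), with 1 column per RNA library and genes grouped by role. The young columns hold many genes at 0, and the RPC columns lack the high levels of Kcnab2, Kcnk1 and Kcnv2 seen in Müller libraries.

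Of the other 29 members, 5 had no count in any library (Kcna10, Kcnj1, Kcnk15, Kcnk18 and Kcnmb3). The remaining 24 were counted at a mean under 1 CPM in each group: Kcna7, Kcnc4, Kcnd2, Kcne3, Kcne4, Kcng2, Kcng3, Kcnh3, Kcnip2, Kcnj15, Kcnj4, Kcnj5, Kcnj8, Kcnk12, Kcnk16, Kcnk4, Kcnk7, Kcnk9, Kcnmb1, Kcnq1, Kcns1, Kcns2, Kcns3 and Kcnv1. A count of 0 over a pooled group allows a level of up to 0.118 CPM in young, 0.0581 in NMDA, 0.043 in aged and 0.081 in RPC cells, from 3 counts and for counting error only. The expression filter passed 66 members and left 25 untested. A member that passed through 1 high group had to differ between groups.

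All 10 libraries were fitted together with edgeR, and a gene was called at an adjusted p under 0.05 over all genes tested. Against young cells, 33 of the 66 tested members were called in NMDA cells, 24 higher and 9 lower, where 44.9% of all genes tested were called (30.6% higher and 14.3% lower). In aged cells 22 were called, 20 higher and 2 lower, with 27% of all genes called (21.1% higher and 5.85% lower). In RPCs 50 were called, 29 higher and 21 lower, with 60.8% of all genes called (35.9% higher and 24.9% lower). The higher calls rest largely on the zeros of the young libraries: both young libraries were at 0 for 21 of the 24 in NMDA, 16 of the 20 in aged and 23 of the 29 in RPC cells. Against aged Müller cells, NMDA cells had 11 called members, 2 higher and 9 lower, with 20.3% of all genes called (10.5% higher and 9.8% lower). RPCs had 35 called, 13 higher and 22 lower, with 55.4% of all genes called (26.3% higher and 29% lower). The members' median log2 change against aged cells was 0.07 in NMDA cells and -0.78 in RPCs, beside 0.04 and 0.02 over all genes tested. The libraries of the 2 groups did not overlap for 46 members in NMDA (58.5% of all genes tested), 32 in aged (54.4%) and 52 in RPC cells (70.4%) against young cells, and for 32 in NMDA (64.1%) and 54 in RPC cells (84.8%) against aged cells. The comparisons share libraries, so their counts are not independent of each other.

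Among inward rectifiers, which carry potassium more easily into than out of the cell, Kcnj11 and Kcnj14 fell in 1 or more comparisons. Kcnj11, the pore of the ATP-sensitive channel Kir6.2, stood at 15.8 and 12.8 CPM in young and 16.4 and 17.2 in aged libraries, at 3.21, 1.07 and 2.11 in NMDA, and at 0.207, 0.813 and 0 in RPC libraries. Every NMDA library thus lay below every untreated Müller library. Kcnj11 fell in NMDA cells, with a log2 change of -2.64 ± 0.82 (SE) against young (adjusted p = 0.0287) and of -3.06 ± 0.83 against aged cells (adjusted p = 0.0327). It also fell in RPCs, with a log2 change of -5.53 ± 0.95 against young (adjusted p = 0.00106) and of -5.95 ± 0.96 against aged cells (adjusted p = 0.000791). The NMDA calls were lost when some single libraries were left out: NMDA replicate 2 or 3 for the comparison with young cells, and any single NMDA or aged library for that with aged cells. The regulatory partner gene of Kir6.2, Abcc8, which encodes the sulphonylurea receptor SUR1, was at 0 in both young libraries, at 1.00 to 2.58 CPM in NMDA and at 0.301 and 0.602 CPM in aged libraries.

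Kcnj3, which encodes a G-protein-gated rectifier subunit, was at 0 and 0.296 CPM in young, 1.01, 2.47 and 2.28 in NMDA, 2.82 and 2.26 in aged and 14.1, 12.1 and 12.3 in RPC libraries. RPC libraries thus held the highest levels. Against the young libraries, which held 3 counts in all, the ratio of pooled levels in RPCs was 109.5 (95% interval 37.3 to 533, counting error only). Against aged cells the log2 difference was 2.02 ± 0.78 with an adjusted p of 0.0543, which missed the threshold. Kcnj12, a strong inward rectifier, was 12.3 to 16.6 CPM in RPC against 3.22 and 1.77 in young libraries and rose there by 2.43 ± 0.75 (log2 change, SE, adjusted p = 0.0204), whereas the difference from the aged libraries, at 11.3 and 9.06 CPM, was 0.22 ± 0.67 and was not called (adjusted p = 0.801). Its call in RPCs was lost without young replicate 2. Kcnj13, expressed in pigment epithelium, was at 0 in young libraries and between 0.729 and 3.18 CPM in all others. Kcnj9 ranged from 0 to 12.1 CPM over the 10 libraries and was not called in any comparison. Kcnj8, the other ATP-sensitive pore gene, stayed at or under 0.693 CPM in every library and was not tested.

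Among tandem-pore leak channels, Kcnk1, which encodes TWIK-1, was lower after NMDA and in RPCs. It stood at 160.8 and 206 CPM in young, 93.8, 63.6 and 97.9 in NMDA, 204 and 205 in aged, and 40.5, 33.7 and 40.8 in RPC libraries. The NMDA and RPC libraries did not overlap with the untreated Müller libraries. Kcnk1 fell in NMDA cells, with log2 changes of -0.995 ± 0.19 (SE) against young cells (adjusted p = 0.00361) and -1.35 ± 0.19 against aged cells (adjusted p = 0.00226). In RPCs it fell, with a log2 change of -2.38 ± 0.20 against young (adjusted p = 1.32e-05) and of -2.73 ± 0.20 against aged cells (adjusted p = 4.99e-06).

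Some other tandem-pore genes were highest in RPC libraries. Kcnk10, the gene of the mechanosensitive TREK-2 channel, was at 0 in all 4 untreated Müller libraries, at 0.63, 0.281 and 0.0557 CPM in NMDA and at 12.2, 7.59 and 11.1 CPM in RPC libraries. RPCs were at least 88.5-fold higher than young and at least 243-fold higher than aged cells, with adjusted p-values of 0.00138 and 0.000899. Kcnk10 was also called higher in NMDA than in aged cells, at least 7.2-fold (adjusted p = 0.0307), but at these levels the call was lost without either aged library or without NMDA replicate 1 or 2. Kcnk5, the acid-sensitive channel TASK-2, read 9.85, 11.2 and 8.13 CPM in RPC, 0.315 to 1.01 in NMDA, 0.329 and 0.753 in aged, and 0 in young libraries. It rose in RPCs by 3.84 ± 0.73 (log2 change, SE) against aged cells (adjusted p = 0.00278). Kcnk2, which encodes the related TREK-1, read 4.11 to 4.68 CPM in RPC and at most 0.501 in Müller libraries, and rose by 3.61 ± 0.63 against aged cells (adjusted p = 0.00175). Kcnk3, the acid-sensitive TASK-1, went the other way, with 3.66, 8.53 and 5.01 CPM in NMDA, 2.58 and 2.65 in aged and 0.181 to 0.62 in RPC libraries. It fell in RPCs, with a log2 change of -3.14 ± 0.68 against aged cells (adjusted p = 0.00534), although it was called higher against the young libraries, where it was at 0.

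Voltage-gated members that were lower after NMDA than in aged cells were the Kv1 genes Kcna2 and Kcna6 and the silent subunit gene Kcnf1. Kcnf1, whose product forms no channel alone and modifies Kv2 channels, stood at 13.7 and 8.57 CPM in young, 1.89, 0.842 and 1.22 in NMDA, 9.26 and 8.28 in aged, and 2.08 to 2.89 in RPC libraries. It fell in NMDA cells, with a log2 change of -2.97 ± 0.46 (SE) against young (adjusted p = 0.00129) and of -2.81 ± 0.46 against aged cells (adjusted p = 0.00412). Kcna6, a Kv1 pore gene, read 43.4 and 30.8 CPM in young, 16.0, 16.4 and 20.6 in NMDA, 71.4 and 72.2 in aged and 9.23 to 12 in RPC libraries. Its order, RPC below NMDA below young below aged, had no overlap between groups. It fell in NMDA cells, with a log2 change of -0.97 ± 0.20 against young (adjusted p = 0.00528) and of -2.10 ± 0.20 against aged cells (adjusted p = 0.000373), and rose in aged over young cells by 1.14 ± 0.23 (adjusted p = 0.00693). The call between NMDA and young cells was lost when only their libraries were fitted.

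Kcna2, another Kv1 pore gene, followed the same order, at 42.2 and 25.8 CPM in young, 20.4, 15.4 and 18.9 in NMDA, 101 and 94.3 in aged and 1.45 to 3.03 in RPC libraries. The aged libraries stood above those of every other group. Kcna2 rose in aged over young cells by 1.71 ± 0.34 (log2 change, SE, adjusted p = 0.00744) and fell in NMDA against aged cells, with a log2 change of -2.51 ± 0.31 (adjusted p = 0.00106), but the difference between NMDA and young cells, -0.80 ± 0.31, missed the threshold (adjusted p = 0.0611). Kcna2 and Kcna6 were the members called higher in aged than in young cells with counts well above 0 in both young libraries. When the young and aged libraries were fitted alone, neither was called.

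**Figure D2:**
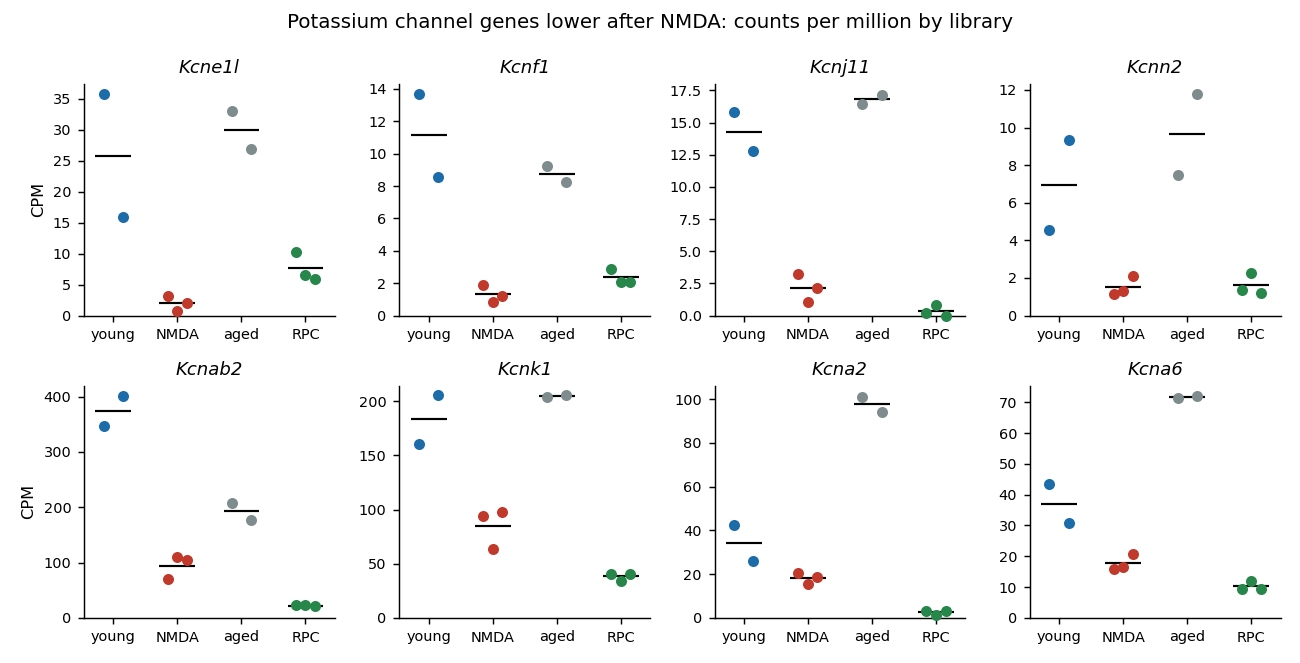
CPM of 8 channel genes that were lower after NMDA than in young or aged Müller cells, by group, with 1 dot per library and a bar at the group mean. For Kcnf1, Kcnj11, Kcnn2, Kcnab2 and Kcnk1 all 3 NMDA dots lie below the young and the aged dots, and for Kcna2 and Kcna6 the aged dots are the highest.

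Kcnv2 and Kcnj14, known from photoreceptors, were among the members with high levels in Müller libraries and little RNA in RPCs. Kcnv2 encodes a silent subunit that joins Kv2 channels in rods and cones, and Kcnj14 the inward rectifier Kir2.4. Kcnv2 read 163.9 and 119.9 CPM in young, 102, 139 and 162 in NMDA, 102 and 74.1 in aged and 0.0689, 0 and 0.262 in RPC libraries. Kcnj14 read 129.8 and 122 CPM in young, 39.5, 73.3 and 71.5 in NMDA, 65.4 and 45.8 in aged and 5.17, 1.36 and 1.05 in RPC libraries. For both genes every Müller library lay above every RPC library.

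Both genes fell in RPCs against both adult groups. Against young cells Kcnv2 had a log2 change of -10.39 ± 0.49 (SE, adjusted p = 5.44e-07) and Kcnj14 of -5.70 ± 0.60 (adjusted p = 5.8e-05). Against aged cells the log2 changes were -9.88 ± 0.49 for Kcnv2 (adjusted p = 5.07e-07) and -4.72 ± 0.59 for Kcnj14 (adjusted p = 0.000155). No difference among the Müller groups was called for either of them. The summed CPM of 12 rod and cone markers, all 12 counted in every Müller library, was 14494 and 9858 in young, 7070 to 11441 in NMDA, 8365 and 5475 in aged, and 10.03 to 12.2 in RPC libraries, where 5 of the 12 were at 0. Per 1000 CPM of these markers the Müller libraries held 11.3 to 14.4 CPM of Kcnv2 and 5.58 to 12.4 of Kcnj14. The part of photoreceptor RNA in these levels was not tested. In bulk libraries fewer cells of a type and less RNA per cell cannot be told apart.

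**Figure D3:**
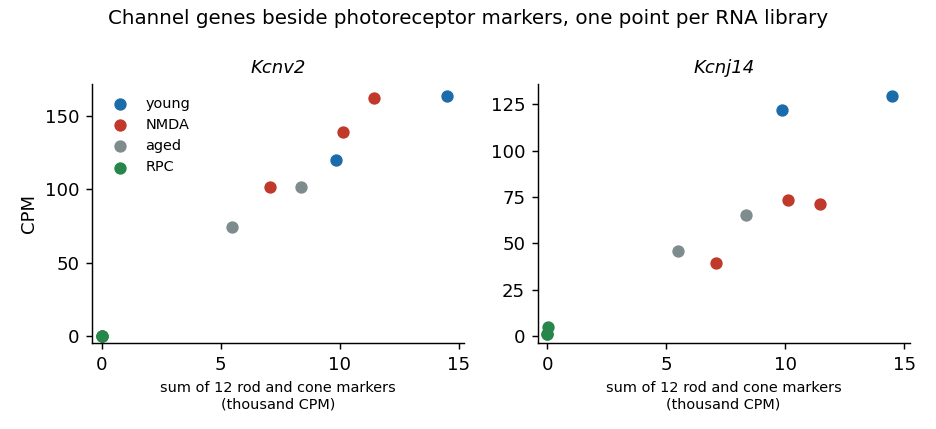
CPM of Kcnv2 and Kcnj14 against the summed CPM of 12 rod and cone markers, with 1 point per RNA library coloured by group. The 3 RPC points lie near 0 on the marker axis, and the 7 Müller points spread from 5475 to 14494 CPM of marker. In each Müller group the library with the lowest marker sum also has the lowest level of each gene. Across Müller groups Kcnj14 does not keep this order: NMDA replicate 3, at 11441 CPM of marker, has 71.5 CPM of Kcnj14, and young replicate 2, at 9858, has 121.8.

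Kcnh6, a voltage-gated gene of the ERG family, also fell in RPCs, with a log2 change of -3.61 ± 0.47 (SE) against young (adjusted p = 0.000221) and of -3.69 ± 0.47 against aged cells (adjusted p = 0.000191), from 7.09 to 17.6 CPM in Müller libraries to 0.437 to 1.26 in RPC libraries.

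A further set of voltage-gated genes was higher in RPCs than in any Müller group. Kcnh2, which encodes the ERG channel of cardiac repolarisation, read 60.5, 76.4 and 70.6 CPM in RPC libraries. It read 15.9 and 29.0 in young, 11.7, 14.5 and 12.5 in NMDA and 19.2 and 22.4 in aged libraries. It rose in RPCs by 1.50 ± 0.25 (log2 change, SE) against young (adjusted p = 0.00097) and by 1.41 ± 0.25 against aged cells (adjusted p = 0.00139), and was counted in all 10 libraries. Kcnh2 was also called lower in NMDA than in young cells, with a log2 change of -0.68 ± 0.24 (adjusted p = 0.0482), a call lost without young replicate 2 or without any single NMDA library.

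Kcnq5, a Kv7 channel gene, read 3.50 to 4.20 CPM in RPC libraries and at most 0.315 in Müller libraries, and rose by 3.40 ± 0.74 over aged cells (adjusted p = 0.00534). Kcnc2, a Kv3 channel gene, read 13.8, 12.2 and 12.6 CPM in RPC libraries against 0.987 to 3.31 in NMDA and aged libraries, and rose by 2.37 ± 0.65 over aged cells (adjusted p = 0.0163), a call lost without aged replicate 1. Kcnh8, of the ELK family, read 8.68, 6.05 and 9 CPM in RPC libraries against at most 0.819 in Müller libraries. It rose by 5.36 ± 1.42 over aged cells (log2 change, SE, adjusted p = 0.0135) and stood at least 67.6-fold above the young libraries, which were at 0. Kcng1, a silent subunit gene, held 3 counts in all in the aged libraries and 1.84 to 2.80 CPM in RPC libraries, a ratio of pooled levels of 57.1 (95% interval 18.9 to 282).

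Neuron markers were also higher in the RPC libraries, for which no sort is named. The sum of 8 markers of ganglion cells and young neurons was 680.2, 358 and 603 CPM in RPC libraries and 63.6 to 115 in Müller libraries. All 8 were counted in every RPC library. The marker Thy1 went the other way, at 0.0689 to 0.175 CPM in RPC libraries and 30.7 to 91.5 in Müller libraries. RPC replicate 2 had the lowest sum, and among the 8 genes plotted by group as highest in RPCs it also had the lowest RPC level of Kcnh8, Kcnk10, Kcnc2 and Kcnj3, but not of Kcnh2, Kcnq5, Kcnk5 or Kcnt2. The part of neuron RNA in the higher RPC levels of channel genes was not tested.

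Kcna4 and Kcnb2, which encode the Kv1.4 and Kv2.2 pores, were at 0 in both young libraries and at low levels in all others. Kcna4 read 0.945, 3.14 and 1.61 CPM in NMDA, 1.97 and 2.08 in aged and 0.895, 0.632 and 1.14 in RPC libraries. Kcnb2, whose span overlaps 4 other annotated genes, read 2.27, 4.94 and 2.06 CPM in NMDA, 1.18 and 1.96 in aged and 1.93, 2.44 and 3.06 in RPC libraries. Both were called higher than in young cells in all 3 comparisons, in NMDA cells by at least 16.4-fold for Kcna4 (adjusted p = 0.00159) and at least 26.3-fold for Kcnb2 (adjusted p = 0.00084). Against aged cells neither passed the test, with adjusted p-values in NMDA cells of 0.895 for Kcna4 and 0.364 for Kcnb2.

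Kcnd3, the Kv4.3 gene of transient A-type current, was present in all groups, at 10.2 and 17.6 CPM in young, 19.7 to 34.5 in NMDA, 11.8 and 16.4 in aged and 24.7 to 37.2 in RPC libraries. It rose in RPCs over young cells by 1.10 ± 0.36 (log2 change, SE, adjusted p = 0.027) but not beyond the threshold over aged cells (0.88 ± 0.36, adjusted p = 0.0629), and the first call was lost without young replicate 1 or without RPC replicate 1 or 3.

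**Figure D4:**
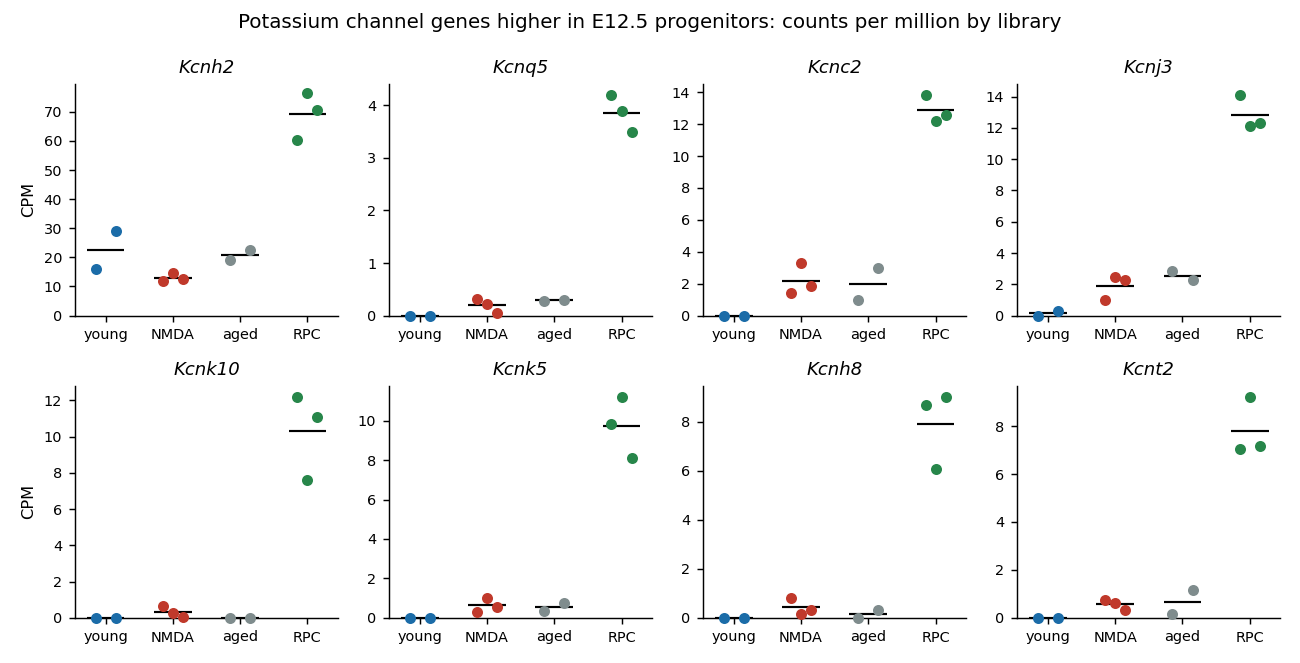
CPM of 8 channel genes with their highest levels in RPCs, by group, with 1 dot per library and a bar at the group mean. The RPC dots lie above all Müller dots in each panel, and for all of these genes except Kcnh2 and Kcnj3 both young libraries are at 0.

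All 8 genes of channels gated by calcium or sodium were tested. Kcnma1, the large-conductance BK pore, was counted in every library, at 63.3 and 49.7 CPM in young, 44.4, 107 and 56.8 in NMDA, 36.3 and 49.5 in aged and 20.4 to 25 in RPC libraries. It fell in RPCs, with a log2 change of -1.41 ± 0.34 (SE) against young (adjusted p = 0.00668) and of -1.20 ± 0.34 against aged cells (adjusted p = 0.0154), the latter lost without aged replicate 2 or RPC replicate 1. Kcnma1 did not pass the test between Müller groups. The small-conductance SK genes went in different directions. Kcnn2 read 4.54 and 9.36 CPM in young, 1.13, 1.29 and 2.11 in NMDA, 7.48 and 11.8 in aged and 1.22 to 2.26 in RPC libraries. It fell in NMDA cells, with a log2 change of -2.07 ± 0.52 against young (adjusted p = 0.0115) and of -2.74 ± 0.52 against aged cells (adjusted p = 0.00779), the latter lost without aged replicate 2 (log2 change -2.38). The call against young cells was lost when the NMDA and young libraries were fitted alone.

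Kcnn1 rose in RPCs, at 18.0 to 21.6 CPM against 5.32 to 8.79 in the Müller libraries, by 1.72 ± 0.28 (log2 change, SE) over young (adjusted p = 0.000771) and by 1.16 ± 0.27 over aged cells (adjusted p = 0.00607). Kcnn3 fell there, with a log2 change of -1.50 ± 0.46 against young (adjusted p = 0.0199) and of -1.99 ± 0.46 against aged cells (adjusted p = 0.0057). Kcnt2, a sodium-activated channel gene, was 7.02 to 9.22 CPM in RPC and at most 1.14 in Müller libraries, and rose by 3.25 ± 0.89 over aged cells (adjusted p = 0.0154). Over the alternatives run this log2 change of Kcnt2 ranged from 2.44 to 5.18, and the level in RPCs was at least 65.3-fold above the young libraries, which were at 0.

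Among accessory subunits, Kcne1l and Kcnab2 were lower after NMDA than in both untreated Müller groups. Kcne1l, also called Kcne5, encodes a single-pass subunit that modifies voltage-gated pores and lies on chromosome X, and the labels do not give the sex of the mice. It read 35.7 and 15.9 CPM in young, 3.15, 0.785 and 2.00 in NMDA, 33.1 and 26.9 in aged, and 10.3, 6.60 and 5.94 in RPC libraries. The NMDA libraries were the lowest of all 10. Kcne1l fell in NMDA cells, with a log2 change of -3.61 ± 0.58 (SE) against young (adjusted p = 0.00144) and of -4.01 ± 0.58 against aged cells (adjusted p = 0.00245).

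Kcnab2, which encodes the cytoplasmic Kv beta subunit of Kv1 channels, read 348 and 400.5 CPM in young, 69.5, 109.5 and 105 in NMDA, 208 and 177 in aged and 22.7, 22.7 and 20.8 in RPC libraries. Its order was young above aged above NMDA above RPC, with no overlap. Against young cells it fell, with a log2 change of -1.87 ± 0.19 (SE) in NMDA cells (adjusted p = 0.000137), of -0.77 ± 0.21 in aged cells (adjusted p = 0.0263) and of -4.21 ± 0.20 in RPCs (adjusted p = 6.04e-07). NMDA cells also lay below aged cells, with a log2 change of -1.11 ± 0.19 (adjusted p = 0.00468), a call lost without aged replicate 1. The aged call was lost without either aged library. Its paralog Kcnab1 read 0 in young, 6.11 to 9.93 CPM in NMDA, 3.26 and 1.42 in aged and 2.62 to 4.52 in RPC libraries.

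Kcnmb4, a beta subunit of BK channels, fell in NMDA against aged cells, with a log2 change of -1.31 ± 0.34 (SE, adjusted p = 0.0277), from 18.3 and 18.0 CPM to 8.38, 6.56 and 8.29, and missed the threshold against young cells (adjusted p = 0.0662). Kcnip3, a calcium-binding Kv4 partner, fell in RPCs against young cells, with a log2 change of -2.74 ± 0.55 (adjusted p = 0.00249), and against aged cells, with one of -2.49 ± 0.55 (adjusted p = 0.00431). Kcnip4, of the same family, read 0 in young, 3.40 to 9.37 CPM in NMDA, 7.18 and 5.45 in aged and 0.344 to 0.723 in RPC libraries, and fell in RPCs against aged cells, with a log2 change of -3.82 ± 0.61 (adjusted p = 0.00111). Kcnrg, a regulator of Kv assembly, ranged from 0 to 3.45 CPM and was not called.

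The sum of the 10 Müller glia markers was also lower after NMDA, at 19136 to 25339 CPM against 52519 to 64889 in the untreated adult libraries. The markers did not move alike. Glul, at 2610 to 4586 CPM in NMDA and 25224 to 33663 in the untreated adult libraries, fell, as did Rlbp1, Aqp4, Abca8a and Dkk3. Slc1a3, Apoe, Clu and Kcnj10 overlapped between these libraries, and Vim rose, from 499.8 to 769.3 CPM up to 1903 to 2475. The part of Müller RNA content in the falls of Kcne1l, Kcnf1, Kcnab2, Kcnk1, Kcnn2 and Kcna6 was not tested. The excluded Müller channel gene Kcnj10 was 710.3 to 1061 CPM in NMDA against 1008 to 1167 in the untreated adult libraries.

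Some members stood highest in NMDA replicate 2, the library with the most microglia and macrophage RNA. The sum of 10 such markers was 3262 CPM there, 292.4 and 648 in the other NMDA libraries, 6.31 and 79.9 in young, 75.7 and 85.7 in aged, and 51.3 to 65.9 in RPC libraries. Lyz2 alone gave 1946 CPM of the sum in NMDA replicate 2, and P2ry12 was higher in young replicate 2 (19.3 CPM) than there (13.3 CPM). NMDA replicate 2 also had the highest marker sums of all 10 libraries for lens (1010 CPM), bipolar cells (322 CPM), amacrine cells (59.0 CPM) and astrocytes (1528 CPM). Gfap alone gave 1169 CPM of the astrocyte sum. The other astrocyte markers were not highest there: Aldh1l1 was 354.7 CPM, below the other NMDA libraries (407.6 and 431.2 CPM). S100b was 3.25 CPM, below the aged libraries (14.9 and 16.9 CPM), and Pax2 was highest in RPC libraries. In young replicate 1, 9 of the 10 markers were at 0. Kcna3, the Kv1.3 gene of lymphocytes and microglia, read 2.08, 11.1 and 3.01 CPM in the NMDA libraries, with 0.658 and 0.662 in aged, 0.0658 and 0 in young, and 5.96 to 8.21 in RPC libraries. It rose in NMDA over aged cells by 2.94 ± 0.85 (log2 change, SE, adjusted p = 0.0409), a call lost without NMDA replicate 2, when the log2 change was 1.86, and also without NMDA replicate 3 or either aged library.

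Kcnk13, which encodes the microglial leak channel THIK-1, read 0.882, 6.90 and 1.28 CPM in the NMDA libraries, and Kcnn4, the intermediate-conductance channel of blood-derived cells, read 0.693, 3.70 and 1.22. Both were at 0 in young libraries and were called higher in NMDA cells (adjusted p = 0.0274 and 0.0267), and both calls were lost without NMDA replicate 2 or young replicate 1. Neither was called between NMDA and aged cells (adjusted p = 0.199 and 0.121). Kcnk6 and Kcnh1 read 18.1 and 25.5 CPM in NMDA replicate 2, against at most 6.40 and 8.07 in any other library. The part of RNA of microglia, or of the other cell types with high marker sums in NMDA replicate 2, in these levels was not tested.

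Outside the channel genes, 28 genes that handle potassium or bind channels were followed as a list, 26 of them tested. Against young cells 10 were higher and 7 lower in NMDA, beside 30.6% and 14.3% of all genes tested. In aged cells 10 were higher and 1 lower (21.1% and 5.85% of all genes), and in RPCs 5 were higher and 15 lower (35.9% and 24.9% of all genes). Both young libraries were at 0 for 4 of the 10 higher genes in NMDA, 4 of the 10 in aged and 3 of the 5 in RPC cells, Abcc8 among them in each comparison. Against aged cells 8 were lower in NMDA (9.8% of all genes), and in RPCs 2 were higher and 17 lower (26.3% and 29% of all genes).

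Among the partners of member channels, Amigo1, a membrane adhesion protein that associates with voltage-gated channels, read 137.8 and 143 CPM in young, 30.4 to 41.5 in NMDA, 133 and 139 in aged, and 28.6 to 33.1 in RPC libraries. It fell in NMDA cells, with a log2 change of -1.79 ± 0.15 (SE) against young (adjusted p = 4.94e-05) and of -1.94 ± 0.15 against aged cells (adjusted p = 0.000105). Lrrc38, an auxiliary gamma subunit of BK channels, fell in NMDA cells, with a log2 change of -2.40 ± 0.40 against young cells (adjusted p = 0.0018), from 17.6 and 23.2 CPM to 4.92, 2.02 and 3.78, and of -2.04 ± 0.40 against aged cells (adjusted p = 0.00868). The BK pore gene Kcnma1 was not called between NMDA and young cells. Other genes of the list were higher in NMDA than in young cells. Dlg1 rose by 1.52 ± 0.16 (log2 change, SE, adjusted p = 0.000169), from 53.2 and 63.1 CPM to 183.7, 126.5 and 152. Dpp6 was at 0 in young and at 12.2 to 15.9 CPM in NMDA libraries. Neither Dlg1 nor Dpp6 was called between NMDA and aged cells (adjusted p = 0.988 and 0.924).

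Methylation could be measured near 52 of the 91 members. A window of 1000 bp either side of the start was used for 36 members whose strand the reference gave, and of a gene end for 16 without a strand, which may not be the start. Each window held at least 5 cytosines of CpG sites covered by at least 10 reads in all 12 RRBS libraries. A window was called at an adjusted p under 0.05 and a difference of at least 10 percentage points. In 43 of the 52 windows the level was under 10% in all 12 libraries, and the share of all windows at that level is not reported here. Of these 43 genes 31 were tested for RNA, and between RPCs and aged cells their RNA was called higher for 7, lower for 9 and neither for 15. Of all genes tested 26.3% were called higher and 29% lower in that comparison. The median window differed from young cells by -2.10 points in NMDA, -2.82 in aged and -2.08 in RPC cells, beside -2.45, -2.86 and -1.91 over all 9392 windows.

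Low methylation before the start was seen at Kcnab2, high in Müller cells, and at Kcnk5 and Kcnh8, high in RPCs, and the 3 sequences show the bases where it was measured. They are the 250 bases before the start of Kcnab2 (chr4:152477550-152477799, minus strand), Kcnk5 (chr14:20181783-20182032, minus strand) and Kcnh8 (chr17:52602459-52602708, plus strand), from RefSeq on GRCm38.p6, written 5′ to 3′. Capitals mark the CG sites with a measured cytosine, 17 of 20 in Kcnab2, 13 of 19 in Kcnk5 and 17 of 20 in Kcnh8. Across the measured positions of these windows another annotated gene also lies, Nphp4 at Kcnab2 and Gm27217 at Kcnh8. RefSeq gives Kcnab2 further starts outside this window, where methylation was not measured.
Kcnab2: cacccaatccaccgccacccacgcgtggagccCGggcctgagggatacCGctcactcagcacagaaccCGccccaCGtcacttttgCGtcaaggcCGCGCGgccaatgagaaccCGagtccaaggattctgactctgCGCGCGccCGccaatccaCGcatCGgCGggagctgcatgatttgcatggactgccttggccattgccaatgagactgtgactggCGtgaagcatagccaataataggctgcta
Kcnk5: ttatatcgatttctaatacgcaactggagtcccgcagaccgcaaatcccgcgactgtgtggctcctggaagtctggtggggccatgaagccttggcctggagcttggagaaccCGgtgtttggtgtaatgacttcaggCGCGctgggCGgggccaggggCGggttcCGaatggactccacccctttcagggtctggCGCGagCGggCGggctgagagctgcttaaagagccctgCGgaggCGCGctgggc
Kcnh8: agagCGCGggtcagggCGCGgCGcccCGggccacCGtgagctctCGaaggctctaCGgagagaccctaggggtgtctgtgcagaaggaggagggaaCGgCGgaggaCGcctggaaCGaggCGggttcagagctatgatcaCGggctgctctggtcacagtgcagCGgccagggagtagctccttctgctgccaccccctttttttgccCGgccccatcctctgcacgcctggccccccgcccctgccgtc
Over these marked sites the mean level in Kcnab2 was 1.75% in young, 0.547% in NMDA, 0.31% in aged and 1.37% in RPC cells, with RNA highest in young cells. In Kcnk5 it was 2.74%, 0.63%, 0.661% and 1.17%, and in Kcnh8 3.77%, 0.834%, 0.516% and 1.71%, both with RNA highest in RPCs. All means were thus under 4%. RefSeq gave a start for 66 members, with a median of 7.5 CG sites in the 250 bases, beside 6.0 for the 27025 genes of the reference, and 40.9% of the members' starts and 37.8% of all starts held 10 or more.

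Of the 52 windows, 4 were called in NMDA cells against young cells, 3 higher and 1 lower, where 1.47% of all windows were called (1.31% higher and 0.16% lower). In aged cells 2 were called, 1 higher and 1 lower, with 0.735% of all windows called (0.33% higher and 0.405% lower). In RPCs 3 were called, 2 higher and 1 lower, with 3.18% of all windows called (2.19% higher and 0.99% lower). Kcnip1, a calcium-binding Kv4 partner, had the largest differences. Its 20 measured positions lay 454 to 909 bp inside the gene, at chr11:33992439-33992894 (GRCm38), where 2 other annotated genes, 4930469K13Rik and Gm51857, also lie. The pooled level was 31.2%, 38.3% and 38.2% in the young libraries, 57.3%, 56.6% and 60.02% in NMDA, 37.5%, 39.8% and 36.8% in aged, and 67.0%, 65.1% and 63.9% in RPC libraries. NMDA and RPC libraries all lay above the untreated adult libraries. The pooled level rose by 21.1 points in NMDA (adjusted p = 4.7e-05) and by 28.4 points in RPC cells (adjusted p = 1.03e-07), and was higher than in young cells at 18 and 19 of the 20 positions. Kcnip1 RNA was low and not called, at 6.18 and 0 CPM in young, 0.441 to 3.03 in NMDA, 0.767 and 1.69 in aged and 2.10 to 3.72 in RPC libraries.

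The other called windows were at gene ends without a known strand. The window of Kcnj14, the Kir2.4 gene described above, held 6 positions, all outside the gene beyond its lower coordinate, and its level rose from 3.56% to 6.88% in young libraries to 12.1% to 21.8% in NMDA (adjusted p = 0.0029) and 17.8% to 24.97% in RPC libraries (adjusted p = 0.000706). Aged libraries, at 2.97% to 6.54%, overlapped with the young ones, and the NMDA call was lost without NMDA replicate 2. Kcne1, a single-pass subunit of cardiac Kv7 channels, rose over 18 positions from 8.81% to 16.8% in young to 26.3% to 30.6% in NMDA (adjusted p = 0.000784) and 18.9% to 27.0% in aged libraries (adjusted p = 0.00353), with RNA at 0 in young and NMDA libraries. The aged call of Kcne1 was lost without aged replicate 1 or young replicate 2. Kcng1 fell over 37 positions from 27.5% to 34.7% in young to 11.4% to 27.0% in NMDA, 13.2% to 16.2% in aged and 15.3% to 17.9% in RPC libraries (adjusted p = 0.000683, 8.72e-06 and 0.000734). Its RNA was counted mainly in RPCs. The window of Kcnn2 stood apart from the rest of the members, at 76.2% to 98.0% in all 12 libraries.

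**Figure D5:**
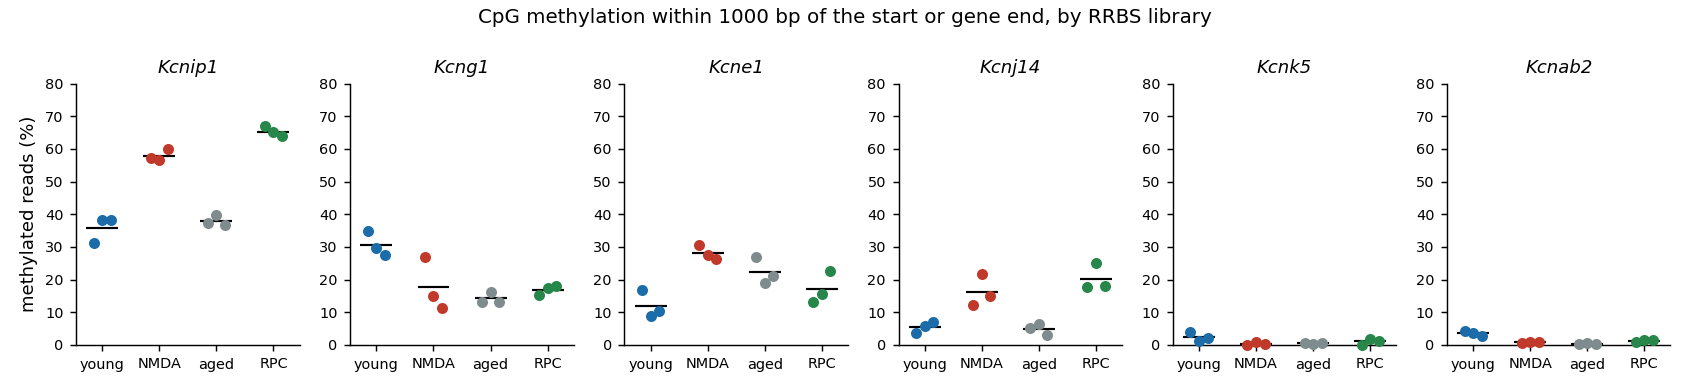
Percent of methylated reads within 1000 bp of the start or gene end of 6 members, by group, with 1 dot per RRBS library and a bar at the group mean. Kcnip1, Kcng1, Kcne1 and Kcnj14 show the called differences, while Kcnk5 and Kcnab2 stay under 5% in all 12 libraries.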

How the data were processed

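RNA was measured in 10 libraries and DNA methylation in 12. For RNA the authors deposited whole-number counts per gene symbol. For RRBS each file lists cytosines with a coverage and, per the file headers, a percent of methylated reads, from 10 reads upward. The submitters' processing notes name Bismark 0.16.3, methylKit 1.4.0, HISAT2 2.0.4 and Trim Galore 0.4.3 without assigning steps. The counting tool is not given in the sources used here, nor is its strand setting. All members, roles and marker lists were chosen with earlier results of these data known.

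Counts were fitted with edgeR 4.0.16 in R 4.3.3 by quasi-likelihood, after TMM scaling and filterByExpr (18931 genes, 6 residual degrees of freedom), and p-values were adjusted by Benjamini-Hochberg over all genes tested. CPM were counts over total counts, with no length correction. SE is the log2 change divided by the root of F. A group at 0 was bounded by 3 counts over its pooled libraries, and groups with 1 to 3 counts got a ratio with a 95% Poisson interval. Methylated reads were recovered from percent and coverage at 759352 positions present in all 12 libraries, with a median coverage of 52 to 109 per library, summed per window and compared by a quasi-binomial model with overdispersion moderated across 9392 windows (numpy 2.4.6, pandas 2.3.3 and scipy 1.17.1 in Python 3.11.15). Both methods were tested on simulated data. Intervals and floors cover counting error only.

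Another annotated gene lay in the span of 42 of the 91 members, and without a known strand setting its reads cannot be told apart. Genes were named by a rule: up to 6 highest and 6 lowest called changes in each comparison with young cells, at a mean of at least 2 CPM and without overlap, the 12 members with the highest mean CPM, and a fixed set, of which some genes are not reported here. Kcnh1, Kcnh6, Kcnmb4, Kcnn1, Kcnn3, Kcnq5 and the partner genes outside the members were named after their values were seen. The closing section gives the alternatives, among them DESeq2 1.42.0.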

Additional observations from a re-analysis of the deposited data

How the results depend on the processing

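No named and called member changed direction under any alternative run. With upper-quartile scaling the median of all genes, NMDA over young cells, went from 0.26 to 0.04 (log2), and the comparison gave 23 members higher and 13 lower in place of 24 and 9. Of all genes tested 26.9% were then called higher and 20.2% lower. Fitting only the 2 groups gave 21 called members of 54 tested in place of 33 between NMDA and young cells, with 28.8% of all genes tested called. Between aged and young cells it gave 0 of 51 tested members in place of 22 with edgeR, with 18 members at an unadjusted p under 0.05. Of all genes tested only 2.05% were called in that fit, in place of 27%. DESeq2 on all libraries gave 25 members, with 30.4% of all genes tested called. A filter of 5 CPM gave 13 for the comparison of aged with young cells, with 24.3% of all genes tested called.

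Leaving out 1 library at a time gave 24 to 49 called members between NMDA and young cells, 17 to 37 between aged and young cells, 45 to 56 between RPC and young cells, 6 to 8 between NMDA and aged cells, and 33 to 37 between RPC and aged cells. Leaving out a young or aged library left 1 library in that group, and the share of all genes called also changed between these fits. The ranges are therefore not results about the members alone. Without young replicate 2 the median log2 change of all genes went from 0.26 to 0.67 in NMDA and from 0.13 to 0.39 in aged over young cells. Of the named and called members, 15 of 25, 2 of 17, 30 of 34, 5 of 10 and 22 of 26 kept their call in every alternative, in the same order.

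Same-numbered libraries did not deviate together (r of deviations from -0.0613 to 0.0885). This gave no sign that the numbers pair the samples. It cannot exclude pairing, because in groups of 2 libraries the deviations mirror each other. With the replicate number as a block, 28, 16, 45, 8 and 34 members were called in the same order. Of all genes tested 35.5%, 18%, 52.3%, 11.9% and 46.7% were then called, in place of 44.9%, 27%, 60.8%, 20.3% and 55.4%. For RRBS windows the block gave 4, 2 and 3 called members in NMDA, aged and RPC against young cells. The share of all windows called with the block is not reported here.

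For RRBS windows, at least 20 reads gave 2 called members in NMDA and 1 in aged cells against young cells, and a window of 500 bp either side gave 2 in NMDA cells. The share of all windows called at these settings is not reported here, so the counts are not results about the members alone. With no minimum difference 36, 45 and 35 members were called in NMDA, aged and RPC cells. The share of all windows called at that setting is not reported here. All windows also lay below young cells, by a median of -2.45, -2.86 and -1.91 points, beside -2.10, -2.82 and -2.08 for the members, so these counts are not particular to the members. Leaving out 1 library gave 3 to 4, 1 to 3 and 3 to 3 called members, and the share of all windows called in those fits is not reported here. Depth limits the members under 1 CPM, and positions under 10 reads were not listed.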

Other observations

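Of the noncoding genes whose symbols begin with Kcn, which the member rule leaves out, Kcnq1ot1 was the one with high counts. This antisense RNA lies within the imprinted Kcnq1 locus, where it silences neighbouring genes on the paternal chromosome. It read 465 and 629.7 CPM in young, 276, 163 and 235 in NMDA, 475 and 461 in aged, and 800.3, 1041 and 1026 in RPC libraries. The NMDA libraries were thus the lowest and the RPC libraries the highest, with no overlap with the untreated adult libraries. Kcnq1 itself was at 0 in every Müller library and at 0.0874 to 0.207 CPM in RPC libraries, and without a known strand setting the reads of the 2 genes cannot be told apart. Kcnmb4os2 read 0 in young, 0.224 to 0.378 in NMDA, 0.74 and 1.204 in aged and 1.45 to 2.07 CPM in RPC libraries.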
